A study of Mus musculus with 2 samples.

Results

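Glucose breakdown was examined step by step in RANKL-treated cultures of mouse bone marrow macrophages, in 1 control library and 1 library labelled MMP9 knockout. The 35 genes described here encode the glucose transporters and enzymes of glycolysis, lactate handling, the pentose phosphate pathway and the entry of pyruvate into mitochondria. They are the rows of the deposited table whose symbol equals a name on a fixed list, and all 35 names were found among 26037 genes (Pkm2 is the older symbol of Pkm). Both groups came from C57BL/6 mice 6 to 8 weeks old. Marrow cells were grown in 10% serum with M-CSF, a macrophage growth factor, at 5 ng/ml and then for 3 days at 30 ng/ml, and both groups received RANKL for 3 days. RANKL is a cytokine that drives macrophages to fuse into osteoclasts, the large cells that break down bone, and the labels call both groups primary osteoclast cells. The genotype of the control group is given as control and that of the other as MMP9 KO, while the column headings carry the letters "NCsh" and "sh". Whether Mmp9, a matrix metalloproteinase gene, was deleted or silenced, and how many animals or cultures were pooled, is not given in these sources.

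Glycolysis splits glucose into 2 molecules of pyruvate in the cytosol and yields ATP and NADH. Pyruvate is either reduced to lactate, which leaves the cell through monocarboxylate transporters, or oxidised in mitochondria by the pyruvate dehydrogenase complex. The pentose phosphate pathway branches off after the first step and supplies NADPH and ribose. Osteoclasts are rich in mitochondria and also use glycolysis for resorption, and inflammatory macrophages are known for raised glycolysis and pentose phosphate activity.

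Each group had 1 library, so no test between genotypes was possible, and each difference describes these 2 libraries without a replicate check. Levels are normalised read counts, which were not divided by gene length, and intervals in parentheses are exact 95% intervals that cover counting error only. The control held 20678441 reads and the knockout 17741432. Mmp9 itself was 139.4 in the control against 3.87 in the knockout. All 11 osteoclast markers were lower in the knockout by at least 2-fold, with summed levels of 7037 and 412. The 11 and these sums include Mmp9, the gene named in the knockout label, so its lower level is no separate sign of cell type. Calcr, Itgb3 and Oscar reached the mean level of 1 needed for comparison only through the control. Of 10 macrophage markers 8 were compared, of which 6 passed 2-fold upward and 1, Cd68, downward, with summed levels of 1009 and 1373. Of the 6, Irf8 and Fcgr1 reached the mean of 1 only through the knockout. Csf1r, the largest term of these sums, was within 2-fold and lower in the knockout, at 751 and 564. Ctsk, the gene of the bone-degrading protease cathepsin K, was 3745 in the control against 42.9 in the knockout, so the labelled cell type was marked far less in the knockout library. Of 38 markers of neutrophils, B, T and NK, erythroid, stromal, megakaryocyte and mast cells, 29 had no read in the control and 28 none in the knockout, and their summed levels were 0.745 and 1.19. In such bulk cultures fewer cells of a type and less RNA per cell cannot be told apart. The part of the osteoclast and macrophage markers in the differences below was not tested.

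Most genes of glucose breakdown were lower in the knockout, and a few were higher. Summed over the 35 genes, the level was 8537 in the control against 6175 in the knockout, 1.38-fold lower, while the sum over all genes was 1.22-fold lower. These genes took 1.66% of all reads in the control (1.656 to 1.667) and 1.47% in the knockout (1.460 to 1.471, Clopper-Pearson). Near-identical copies of some members, described below, are not part of these sums and shares. Those of Gapdh alone summed to 6662 in the control against 4898 in the knockout. The sums and shares therefore depend on how reads were divided with the copies, which the intervals do not cover. A gene was compared when its mean level was at least 1, and it counted as different at 2-fold after a pseudocount of 1 was added to both levels. Of 34 compared members 8 (23.5%) were lower by at least 2-fold, against 9.58% of 11126 compared genes. The 8 lower ones were Hk1, Hk3, Pfkl, Aldoc, Eno2, Taldo1, Pdha1 and Pdk1. The 2 higher ones (5.88%), against 4.0% of all compared genes, were Slc2a6 and G6pdx. Slc2a6 reached the mean of 1 only through its knockout level. In either direction 10 of 34 members passed 2-fold, against 13.6% of all compared genes. At 1.5-fold 16 members were lower and 3 higher, against 23.2% and 8.56% of all compared genes. A log2 ratio below 0 was seen for 29 of 34 members (85.3%), against 62.7% of all compared genes. Their median log2 ratio was -0.54, and that of all compared genes -0.16. Many members lay close to the threshold: 8 were within 0.1 log2 units of it, 7 of them on the lower side. The split of 8 lower and 2 higher became 3 and 3 when the knockout was scaled to a median log2 ratio of 0, which shifts that median by 0.16. Among all compared genes 7.18% were then lower and 5.08% higher by at least 2-fold. The split was also 3 and 3 with a trimmed mean of log ratios and with equal library sums, which shift the median by 0.17 and 0.26. The lower and higher shares of all compared genes were 7.11% and 5.14% with the trimmed mean, and 6.15% and 6.06% with equal sums. Under each of these scalings Hk1, Pfkl, Taldo1, Pdha1 and Pdk1 were within 2-fold, and Slc16a1 passed it on the higher side. The members were also richer in G and C, with a median of 53.6% of transcript bases against 49.9% for all compared genes. Centring the log2 ratios within bins of GC content gave 4 lower and 2 higher and a median of -0.23. Of all compared genes 6.18% were lower and 5.01% higher after this centring.

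**Figure D1:**
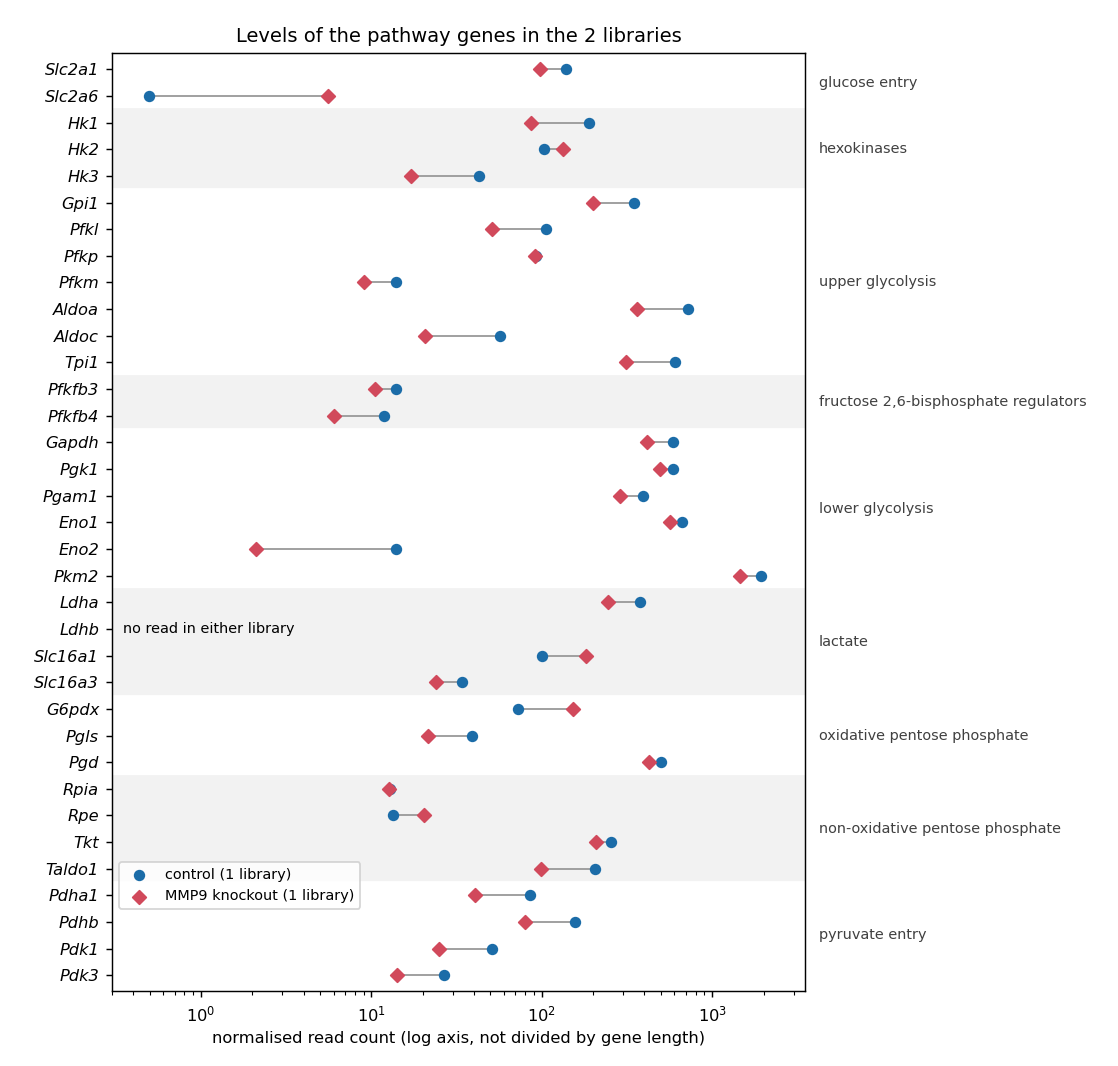
Normalised read count (log axis) of each gene in the control (blue circles) and the knockout (red diamonds), 1 library each, in the order of the pathway. Most diamonds lie left of their circle, whereas those of Slc2a6, Hk2, Slc16a1, G6pdx and Rpe lie to the right, and Ldhb had no read in either library.

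**Figure D2:**
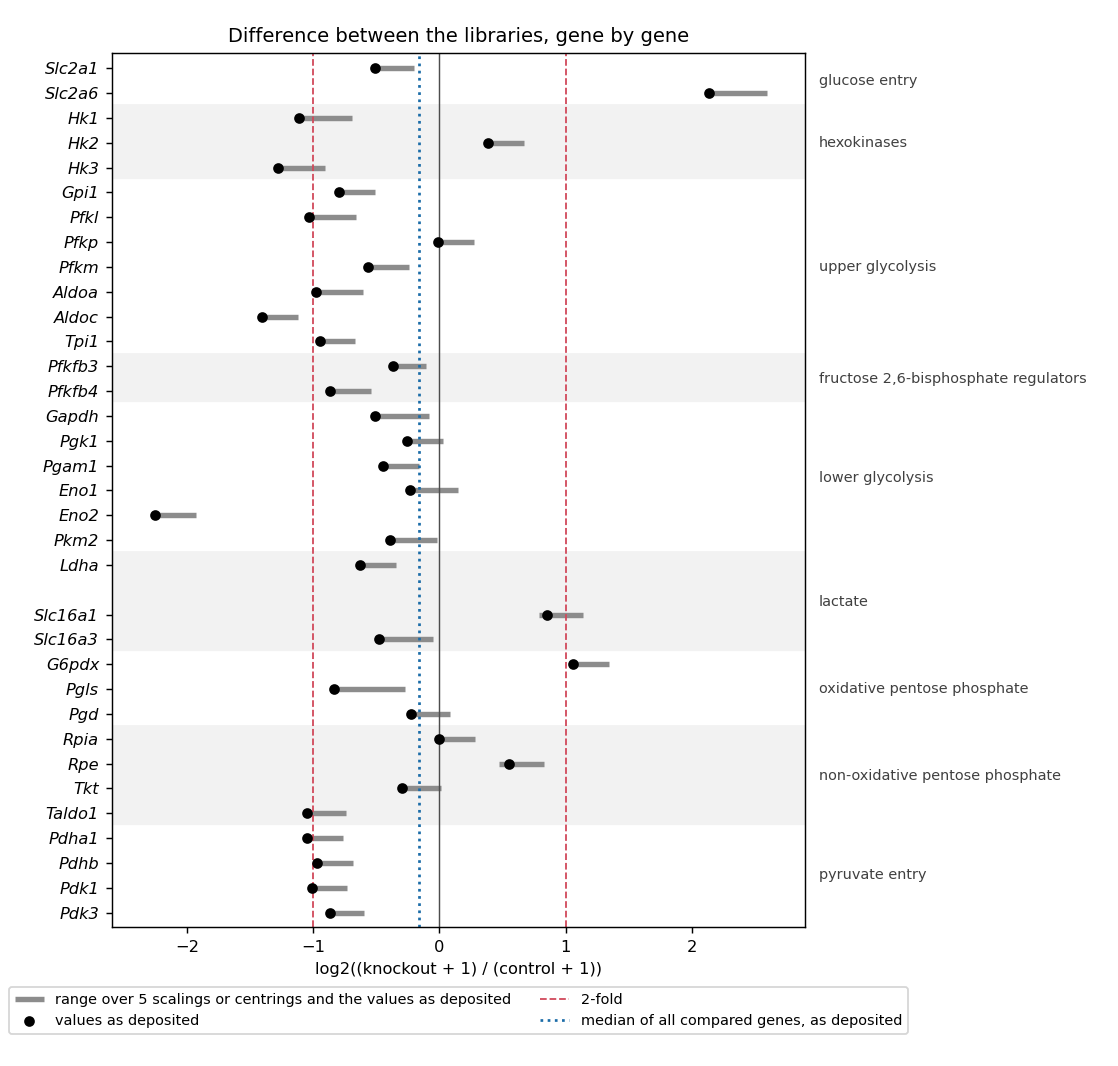
The log2 ratio of knockout to control with a pseudocount of 1 for the 34 compared genes (black points), with the range it takes over 5 other scalings or centrings (grey bars). The dotted line marks the median of all compared genes at -0.16 and the dashed lines 2-fold. Aldoc and Eno2 on one side and Slc2a6 and G6pdx on the other stayed past 2-fold over the whole of their bars. The bars leave out other pseudocounts, and with a pseudocount of 5 the log2 ratio of Slc2a6 was 0.94.

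Promoters of 4 members are printed because these genes mark both sides of the comparison: Aldoc and Hk3 were lower by at least 2-fold, Hk2, a paralog of Hk3, had a higher level in the knockout, and G6pdx was higher by at least 2-fold. Each window runs 5′ to 3′ on the gene's strand from 250 bases before to 50 after a RefSeq start site in GRCm38.p6. Capitals mark matches, on either strand, to ACGTG (the core of the hypoxia response element) and TGACNNNGC (the core of the antioxidant response element). Aldoc has 2 start sites, and the more upstream one is shown.
Aldoc, chr11:78322823-78323122, plus strand: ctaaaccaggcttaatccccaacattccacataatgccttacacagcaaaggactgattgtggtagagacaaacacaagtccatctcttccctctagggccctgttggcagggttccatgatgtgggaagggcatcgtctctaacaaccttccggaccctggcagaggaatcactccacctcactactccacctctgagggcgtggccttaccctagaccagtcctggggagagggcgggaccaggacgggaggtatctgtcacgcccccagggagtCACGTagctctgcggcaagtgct
Hk3, chr13:55021336-55021635, minus strand: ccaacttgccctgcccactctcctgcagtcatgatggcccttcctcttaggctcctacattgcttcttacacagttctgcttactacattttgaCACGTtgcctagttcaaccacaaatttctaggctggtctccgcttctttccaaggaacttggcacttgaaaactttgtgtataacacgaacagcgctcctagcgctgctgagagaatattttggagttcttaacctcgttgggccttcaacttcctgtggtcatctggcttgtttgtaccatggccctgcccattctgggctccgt
Hk2, chr6:82774405-82774704, minus strand: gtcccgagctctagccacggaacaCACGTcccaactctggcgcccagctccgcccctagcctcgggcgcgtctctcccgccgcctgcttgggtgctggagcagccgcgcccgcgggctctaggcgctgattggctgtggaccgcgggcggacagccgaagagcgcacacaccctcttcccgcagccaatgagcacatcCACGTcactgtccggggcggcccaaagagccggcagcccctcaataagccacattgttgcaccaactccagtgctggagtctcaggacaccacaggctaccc
G6pdx, chrX:74428831-74429130, minus strand: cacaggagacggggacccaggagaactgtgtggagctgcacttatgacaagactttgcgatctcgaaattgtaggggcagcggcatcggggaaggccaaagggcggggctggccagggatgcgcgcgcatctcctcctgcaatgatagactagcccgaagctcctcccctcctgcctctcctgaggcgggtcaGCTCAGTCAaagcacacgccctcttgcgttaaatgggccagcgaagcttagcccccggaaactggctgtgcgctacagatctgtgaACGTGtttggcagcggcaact
The window of Hk2 held ACGTG at 2 places and those of Aldoc, Hk3 and G6pdx at 1 place each, and G6pdx was the only one of the 4 with TGACNNNGC.

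All 35 members had a RefSeq promoter entry, with 49 windows in all. ACGTG was found in 21 of these 49 windows (42.9%), belonging to 18 genes, against 19.6% of all 32851 windows of the same length. All windows were not matched to the members for GC content or expression, and the part of these in the difference was not tested. CACGTG, the E-box, which contains ACGTG, was found in 8.16% of member windows (Ldha, Pfkfb3, Pfkm and Slc16a1) and 7.15% of all windows. TGACNNNGC was found in 12.2% and 12.4%, TGACTCA (AP-1) in 2.04% and 5.2%, TTCNNNGAA (STAT) in 4.08% and 8.30%, and the core of the interferon response element in 2.04% and 3.44%. Genes with ACGTG were found on both sides of the comparison, such as Hk1 and Hk2. A match describes the letters of the window and not a bound site.

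Glucose enters these cells through facilitative transporters. Slc2a1, which encodes GLUT1, was 139.5 in the control against 97.8 in the knockout. Slc2a6, which encodes the lysosomal transporter GLUT6, was 0.497 in the control against 5.58 in the knockout, 11.2-fold higher (7.11 to 18.7) from 20 and 235 reads. Slc2a6 lies on chromosome 2 from 27021363 to 27027998 in GRCm38, and without its knockout level it would not have reached the mean of 1. Its log2 ratio was 2.14, and 0.94 with a pseudocount of 5, which shrinks genes of low level. Slc2a3, which encodes GLUT3 and is no member, was also higher, at 12.7 and 28.7, 2.26-fold (2.03 to 2.51). Per kilobase of transcript, Slc2a1 made up 92.6% of the summed level of these 3 transporters in the control against 75.3% in the knockout.

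The hexokinases, which trap glucose as glucose 6-phosphate, differed in direction. Hk1, the broadly expressed form, was 189 in the control against 86.4 in the knockout, 2.18-fold lower (2.10 to 2.27). Hk3, a form typical of myeloid cells, was 42.8 and 17.0, 2.52-fold lower (2.31 to 2.75). Hk2, the inducible form, was 102 and 134, 1.31-fold higher (1.25 to 1.36). Hk2 kept a log2 ratio above 0 and Hk1 and Hk3 one below 0 under each scaling and centring tried. For Hk2 only the centrings could have gone the other way, since the 3 scalings all raise the knockout. Per kilobase, Hk1 made up 58.1% of the hexokinase level in the control against 40.6% in the knockout, and Hk2 24.4% and 48.8%. With the summed length of all exons in place of the longest protein-coding transcript, Hk2 took 33.7% and 60.3%. Its share was thus larger in the knockout with either length, by 24.3 and 26.6 percentage points. Hkdc1, a hexokinase-related gene outside the list of members, was 7.55 in the control against 0.0238 in the knockout, with 304 reads and 1 read, 318-fold lower (56.6 to 12600.5). It reached the mean of 1 only through its control level.

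The upper steps, which convert glucose 6-phosphate to triose phosphates at the cost of ATP, had lower levels in the knockout, with Pfkp near 1 as the exception. The 2-fold threshold was passed by 2 of 7 genes, both lower, against 9.58% of all compared genes. The median log2 ratio of the 7 was -0.95. Gpi1, glucose phosphate isomerase, was 348 and 199. Aldoa, the main aldolase, was 717 in the control against 363 in the knockout, 1.98-fold lower (1.94 to 2.02), which is just short of the threshold. Tpi1, triose phosphate isomerase, was close to it too, at 602 and 311. Aldoc, the aldolase best known from brain, was 56.8 and 20.7, 2.74-fold lower (2.53 to 2.96). Aldoa held 95.8% of the aldolase level per kilobase in the control against 96.9% in the knockout.

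Phosphofructokinase commits sugar to glycolysis, and its 3 genes differed in size of difference. Pfkl, the liver-type subunit, was 106 and 51.0, 2.07-fold lower (1.97 to 2.18). Pfkp, the platelet-type subunit, was 92.3 and 91.8, with a ratio of 0.994 (0.95 to 1.04). Pfkm, the muscle-type subunit, was lowest, at 13.9 and 9.10. Pfkp had a log2 ratio of -0.01 as deposited and of 0.27 with equal sums, whereas that of Pfkl stayed below 0 under each scaling and centring. Per kilobase, Pfkp made up 40.2% of the level in the control against 56.8% in the knockout. Pfkl, at 51.1% and 35.1%, was first in the control against second in the knockout. This order depends on the length used, since with summed exons Pfkl was first in both libraries, at 58.8% and 44.4%.

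Fructose 2,6-bisphosphate, the strongest activator of phosphofructokinase, is made by the bifunctional PFKFB enzymes. Pfkfb3, the form with the highest kinase activity, was 13.9 and 10.5, and Pfkfb4 was 11.9 and 6.06. Neither differed by 2-fold on the pseudocount scale. Pfkfb2, the form known from heart and no member, was 95.3 in the control against 15.1 in the knockout, 6.32-fold lower (5.81 to 6.88). Per kilobase it held 75.8% of the summed PFKFB level in the control against 42.4% in the knockout. The share of Pfkfb3 was 10.2% and 27.2%, although its own level was not higher in the knockout. Pfkfb1, the form known from liver and no member, was low, at 1.07 and 1.33.

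**Figure D3:**
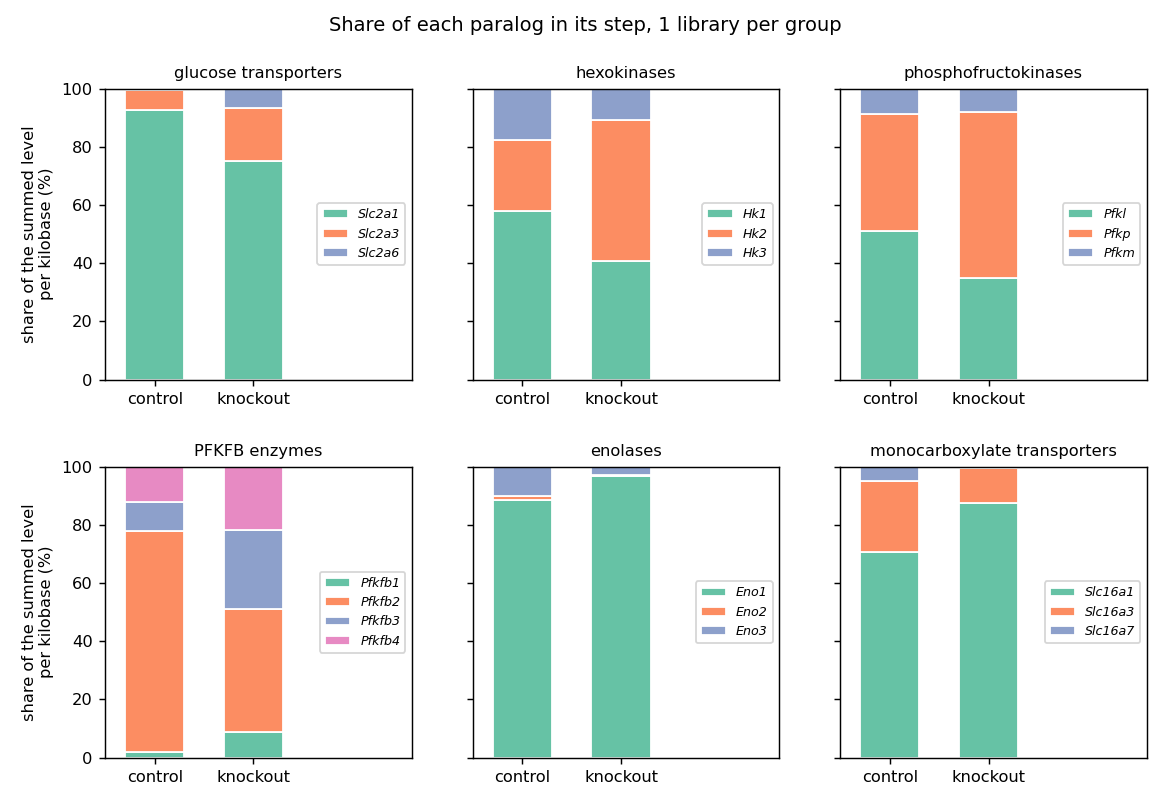
Share of each paralog in the summed level per kilobase of its step, by the longest protein-coding transcript, in the control and the knockout (1 library each). Hk2 takes 24.4% of the hexokinase bar in the control against 48.8% in the knockout, and Pfkp 40.2% and 56.8% of the phosphofructokinase bar.

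The lower steps, which turn triose phosphates into pyruvate and yield ATP, had a median log2 ratio of -0.42, against -0.95 for the upper steps. The 2-fold threshold was passed by 1 of 6 genes, Eno2, on the lower side, against 9.58% of all compared genes. Pkm2, the pyruvate kinase gene, had the highest level of the 35, at 1921 and 1462, and made up 22.5% of their summed level in the control against 23.7% in the knockout. Its M1 and M2 splice forms cannot be told apart in a table of genes. Gapdh together with its near-identical copies, described below, summed to 7252 in the control against 5311 in the knockout. How reads were divided with such copies may affect the rank and share of Pkm2. Pgk1, phosphoglycerate kinase, was 591 and 494, and Pgam1, phosphoglycerate mutase, was 394 and 289. Pgk1 had a log2 ratio of -0.26 as deposited and of 0.03 with equal sums, so its direction depends on scaling.

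Enolase makes phosphoenolpyruvate, and its genes were unequal. Eno1 was 664 in the control against 565 in the knockout, with a log2 ratio of -0.23 that became 0.05 with equal sums. Eno2, the enolase known from neurons, was 13.9 and 2.11, 6.57-fold lower (5.24 to 8.31) from 559 and 89 reads. Eno3, the muscle enolase and no member, was 57.2 and 12.4, 4.63-fold lower (4.20 to 5.10). Eno1 made up 88.7% of the enolase level per kilobase in the control against 96.98% in the knockout. With summed exons the shares were 77.5% and 93.3%. Gm5506, a near-identical match to Eno1 described below, is not part of these shares.

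Some of these genes have near-identical copies in the table. The glyceraldehyde phosphate dehydrogenase gene Gapdh was 590.0 in the control against 413 in the knockout, 1.43-fold lower (1.40 to 1.46). The table also holds 20 other genes with reads, mostly processed pseudogenes, that match the coding sequence of Gapdh at 90% identity or more over at least 300 bases. Their levels summed to 6662 in the control library against 4898 in the knockout, 11.3 times the level of Gapdh itself in the control, and 5 of them lay above it. Gm5506, which matches Eno1 at 99.4% identity, was 1074 and 894, above Eno1. Aldoart1 and Aldoart2, which match Aldoa, summed to 114 and 57.2, Gm1840, which matches Gpi1, was 147 and 80.1, and G6pd2, which matches G6pdx, was 6.46 and 14.2. No source used here says how reads that fit several places were counted, so the levels of these 5 members are uncertain. Pdha1 had 1 copy with reads, 4930519F09Rik, at 0.646 and 0.309. With the copies added, the log2 ratio was -0.45 for Gapdh in place of -0.51, and -0.25 for Eno1 in place of -0.23. It moved less than that of Gapdh for Aldoa, Gpi1, G6pdx and Pdha1, and the counts of 8 lower and 2 higher members were the same.

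Of the genes of lactate production and export, Slc16a1 had a higher level in the knockout, and Ldha, Slc16a3, Slc16a7 and Bsg had lower levels. Ldha, the lactate dehydrogenase subunit that favours lactate production, was 377 in the control against 243 in the knockout, 1.55-fold lower (1.51 to 1.59). Ldhb, the heart-type subunit, is listed with no read in either library, and 3 reads, the limit taken for a count of 0, correspond to 0.0745 in the control against 0.0713 in the knockout. Slc16a1, which encodes the monocarboxylate transporter MCT1, was 100.04 and 181, 1.81-fold higher (1.74 to 1.88). Its log2 ratio of 0.85 was within 2-fold as deposited, but 1.03 with the median set to 0 and 1.14 with equal sums. It stayed within 2-fold after centring by GC content (0.79) or transcript length (0.94), and with a pseudocount of 5 (0.83). Slc16a3, which encodes the lactate exporter MCT4, was 34.0 and 24.1, 1.41-fold lower (1.30 to 1.53). Slc16a7, which encodes MCT2 and is no member, was 17.4 and 2.02, 8.64-fold lower (6.89 to 10.95). Per kilobase Slc16a1 made up 70.6% of the level of these 3 transporters in the control against 87.7% in the knockout. Bsg, the basigin gene, whose product carries MCT1 and MCT4 to the membrane, was 136 and 79.1.

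The oxidative branch of the pentose phosphate pathway, which makes NADPH, was split between its first enzyme and the next. G6pdx, glucose 6-phosphate dehydrogenase, the entry point of the branch, was 72.9 in the control against 153 in the knockout, 2.09-fold higher (2.004 to 2.19). Pgls, the lactonase of the next step, was 39.1 and 21.4, 1.82-fold lower (1.68 to 1.98). Pgd, which makes the second NADPH, was 499 and 427, with a log2 ratio of -0.22 that became 0.06 with equal sums. G6pdx was past 2-fold with the values as deposited and under each scaling and centring, with log2 ratios from 1.06 to 1.34.

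The non-oxidative branch, which interconverts sugars and returns carbon to glycolysis, was mixed as well. Taldo1, transaldolase, was 206 in the control against 99.0 in the knockout, 2.08-fold lower (2.005 to 2.16). Tkt, transketolase, which acts beside it, was 254 and 207, with a log2 ratio of -0.30 that became -0.01 with equal sums and 0.01 after GC centring. Rpia, the ribose 5-phosphate isomerase gene, was 12.8 in both libraries. Rpe, the epimerase of the same stage, was 13.5 and 20.3, 1.505-fold higher (1.35 to 1.68). Over both branches 1 of 7 genes was higher and 1 lower by at least 2-fold, against 4.0% and 9.58% of all compared genes. The median log2 ratio of the 7 was -0.22. Prps1, which uses ribose 5-phosphate for nucleotide synthesis and is no member, was 27.2 and 50.6, 1.86-fold higher (1.73 to 2.01).

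Genes at the entry of pyruvate into mitochondria were all lower, with log2 ratios between -1.05 and -0.87. This is a narrow range across the 2-fold threshold. Among all compared genes 62.7% had a log2 ratio below 0. Pdha1 and Pdhb encode the catalytic alpha and beta subunits of pyruvate dehydrogenase. Pdha1 was 84.7 in the control against 40.5 in the knockout, 2.09-fold lower (1.97 to 2.22). Pdhb was 157 and 79.7, 1.97-fold lower (1.89 to 2.06). Pdk1 and Pdk3 encode kinases that switch this enzyme off, so transcripts of the enzyme and of these inhibitors both had lower levels in the knockout. Pdk1 was 51.0 and 24.8, 2.06-fold lower (1.91 to 2.22), and Pdk3 was 26.6 and 14.1, 1.89-fold lower (1.71 to 2.09). The other subunits of the complex, which are no members, differed less: Dlat was 49.2 and 33.4, Pdhx 38.3 and 31.0, and Dld, shared with other complexes, 98.6 and 105. Mpc2 (Brp44 in the table), a subunit of the mitochondrial pyruvate carrier, was 40.6 and 19.1, 2.12-fold lower (1.95 to 2.31), while its partner Mpc1 (Brp44l) was 7.11 and 5.77. Pdk4 had no read in either library, and Pdk2, a further kinase of this family, had no row.

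**Figure D4:**
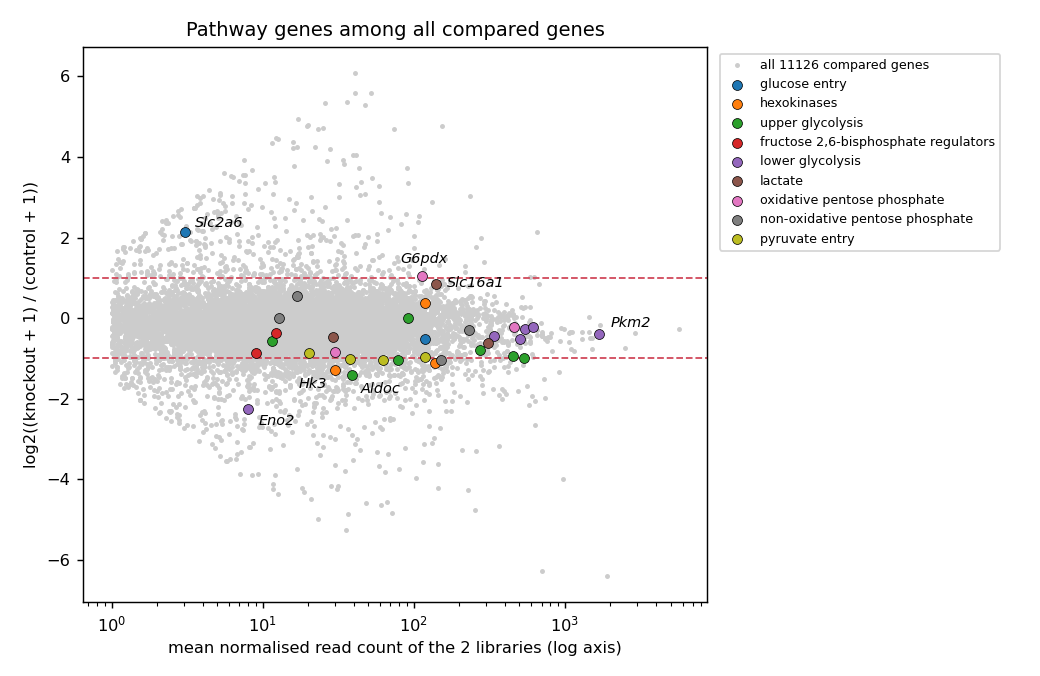
Mean normalised read count of the 2 libraries (log axis) against the log2 ratio of knockout to control with a pseudocount of 1, for the 11126 compared genes (grey) and the 34 compared members (coloured by step). The 10 members of highest mean level lie between 0 and -1, and Slc2a6 and Eno2, which lie farthest from 0 among the members, are among those of low level.

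Levels between genes were compared per kilobase of the longest protein-coding transcript. In the control the order was led by Pkm2 at 790.0, followed by Aldoa at 463, Gapdh at 415 and Tpi1 at 374. In the knockout Pkm2, at 601, was followed by Gapdh at 291, Eno1 at 279 and Pgk1 at 270.4, and Aldoa was at 234. The transporters and kinases that admit glucose stood far lower, with Slc2a1 at 42.8 and 30.01, Hk1 at 44.1 and 20.2, and Hk2 at 18.6 and 24.3. How reads were divided with the copies named above may affect Gapdh, Eno1 and Aldoa in this order. The order also depends on the length used. With summed exons, Aldoa was at 125 in the knockout, above Eno1 at 105. Gapdh has 4133 bases of summed exons against 1420 in its longest protein-coding transcript, and Pgk1 2244 against 1825.

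Beside the members, 63 further genes of these pathways were listed, of which 62 had a row and 43 were compared. Of the 43, 7 passed 2-fold on the lower side (16.3%) and 2 on the higher side (4.65%), against 9.58% and 4.0% of all compared genes. Their median log2 ratio was -0.26. The lower ones were Hkdc1, Eno3, Slc16a7, Pfkfb2, Mpc2, Slc37a2 and Gys1, and the higher ones Slc2a3 and Pck2. Slc37a2, a sugar phosphate transporter of osteoclasts and macrophages, was 660.4 in the control against 72.5 in the knockout, 9.11-fold lower (8.78 to 9.46). Pck2, the mitochondrial phosphoenolpyruvate carboxykinase, was 10.5 and 61.6, 5.88-fold higher (5.30 to 6.53). Hif1a and Myc, transcription factor genes known to drive glycolytic genes, were 78.0 and 112, and 46.7 and 39.1.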

How the data were processed

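Polyadenylated RNA of 2 libraries was read on an Illumina sequencer, per the labels' protocols. TopHat and the mouse build mm9 are named in the submitters' processing notes. The counting program, annotation, strand use, treatment of multiply mapped reads and normalisation are not given in these sources, so reads of overlapping or antisense genes cannot be told apart. For 26037 genes the authors deposited log2 values in 1 table. It is titled RPKM, but the converted values were whole multiples of 1 step per library (0.0248 in the control, 0.0238 in the knockout) for 99.99% of the values in each, within 0.05 of a read. They were therefore read as counts times 1 factor per library, and the value of a gene without reads, 0.9 of a step, was set to 0. The deposited unit was thus not the one the thresholds (pseudocount of 1, mean of at least 1, 2-fold) had been set for.

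Depth limits precision: a fold from 20 reads has a wide interval. Intervals came from the exact binomial distribution of the 2 read numbers (scipy 1.17.1) and treat reads as independent molecules, which reads without molecular identifiers are not. Transcript lengths, GC content and positions came from GENCODE M21 on GRCm38, another build than that of the alignment, matched by Ensembl identifier. The length was that of the longest protein-coding transcript. Copies were found with blastn 2.17.0. The procedure was tested on simulated data.

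All 35 members were named. Of the other pathway genes, those past 2-fold, those of a paralog set and, chosen after their values were seen, Bsg, Prps1, Dlat, Pdhx, Dld, Mpc1, Hif1a, Myc and those of the closing section were named. The members, lists, markers and the promoters shown were chosen with earlier results of these data known. As alternatives, the pseudocount was set to 0.1 or 5, the level filter was dropped or raised to a mean of 5, 3 scalings were applied, ratios were centred in 20 bins of GC content or of length, and the analysis was repeated with a 1.5-fold threshold and, added after the data were seen, sums with copies and the longest transcript of any kind.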

Additional observations from a re-analysis of the deposited data

How the results depend on the processing

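No paired analysis was possible because each genotype had a single library, which also means that none could be left out. The 8 members lower by at least 2-fold became 5 with a pseudocount of 5. They were 3 with the median log2 ratio set to 0, with a trimmed mean and when sums were made equal. They were 4 after centring by GC content or by transcript length, and 16 with a threshold of 1.5-fold, which 23.2% of all compared genes passed. The share of all compared genes lower by 2-fold was 5.42% with a pseudocount of 5, and 7.18%, 7.11% and 6.15% under these 3 scalings. After the 2 centrings this share was 6.18% and 6.78%. The 2 higher members became 1 with a pseudocount of 5 and 1 with a mean of at least 5, which leaves out Slc2a6. Of all genes compared under these settings 2.29% and 3.35% were higher. The median log2 ratio of -0.54 was -0.27 with equal sums and -0.23 with GC centring. In both cases the median of all compared genes moved too, to 0.10 and to 0. The members' median minus that of all compared genes was -0.38 as deposited, -0.36 with equal sums and -0.23 with GC centring. Below the median of all compared genes lay 27 members as deposited and with equal sums, and 24 with GC centring. The cause was not tested, except that scalings move the many members near 2-fold by construction. All 3 scalings raise the knockout, so a member above 0 as deposited could fall below it only through a centring. With the values as deposited and under the 3 scalings and 2 centrings, 23 members had a log2 ratio below 0 and 5 above 0 (Slc2a6, Hk2, Slc16a1, G6pdx and Rpe). The other 6 compared members changed sign under at least 1 of them: Pfkp, Pgk1, Eno1, Pgd, Rpia and Tkt. How many of all compared genes kept their sign in this way was not counted. As deposited, 62.7% of all compared genes had a log2 ratio below 0. The paralog shares were recomputed with 2 other lengths: of 52 differences between libraries 50 stayed within 5 percentage points, and those of Eno1 and Eno3 moved to 15.8 and -14.3 points with summed exons. Many of the 52 could not move. In the hexokinase, aldolase, enolase, lactate dehydrogenase, monocarboxylate transporter and pyruvate dehydrogenase kinase sets the longest transcript of any kind was the protein-coding one. The differences of Ldha, Ldhb and Pdk4 were 0 with any length.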

Other observations

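Glycogen genes, taken from the list of further pathway genes, were not described above. Gys1, the glycogen synthase of most tissues, was 39.3 in the control against 11.9 in the knockout, 3.31-fold lower (2.99 to 3.66). The branching enzyme gene Gbe1 was 26.6 and 19.98, Ugp2, which makes UDP-glucose, was 11.9 and 7.72, and the phosphorylase gene Pygb was 39.6 and 38.1. Pygl, the liver phosphorylase gene, had no read in either library. Txnip, which restrains glucose uptake, was 107 and 63.7.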
